A study of Mus musculus with 18 samples.

Results

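The RasGRP family comprises the 4 genes Rasgrp1, Rasgrp2, Rasgrp3 and Rasgrp4, which were taken by symbol from a table of 24072 genes. Of the 14377 peaks at which the transcription factors EBF1 or PAX5 bind, the 4 that the deposited annotation assigns to one of these genes were taken as well. The levels were measured in pro-B cells, early B-lineage precursors, grown from C57BL6/J mouse fetal liver. All cultures were expanded on OP9 stromal cells with KIT ligand, FMS-like tyrosine kinase 3 ligand and interleukin-7, each at 10 ng/ml. The 3 genotypes were wild type (WT), Ebf1-/- (Ebf1-KO) and Pax5-/- (Pax5-KO), with 3 libraries per genotype for RNA and 3 for accessible chromatin (ATAC), 18 in all. EBF1 and PAX5 are transcription factors that specify and maintain the B lineage, so the comparison shows how the expression of the family and the accessibility of its bound sites differ when either factor is missing. The labels do not give the fetal stage, whether the libraries of a genotype came from separate fetuses, or which part of each gene was deleted. P-values therefore measure the spread between these libraries, which may be technical.

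RasGRP proteins are guanine nucleotide exchange factors: they load the small GTPases Ras and Rap with GTP and so switch them on. Most bind the membrane lipid diacylglycerol through a C1 domain. Diacylglycerol is made by phospholipase C after an antigen receptor or its precursor is engaged, and active Ras then starts the RAF-MEK-ERK kinase cascade. RasGRP1 is best known from thymocytes and T cells, RasGRP2 (also CalDAG-GEFI) as a calcium-responsive Rap activator of platelets, RasGRP3 from B cells and RasGRP4 from mast cells and other myeloid cells.

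Libraries held 15.6 to 63.6 M reads in exons (RNA) and 15.3 to 38.6 M tags (ATAC). Pax5 RNA was at 1314 to 1629 reads per 10 M (10000000) mapped reads in WT, at 98.6 to 129 in Pax5-KO and at 8.53 to 15.7 in Ebf1-KO. Ebf1 RNA was at 3252 to 4454 in WT, at 1345 to 1605 in Ebf1-KO and at 1329 to 1661 in Pax5-KO. The values count reads over all exons and do not show which exons remain. Of 12 B-lineage marker genes all were detected in WT and in Pax5-KO, with sums of 40247 to 42428 and 15756 to 22556. In Ebf1-KO the sum was 4219 to 4365, and Vpreb3 was at 0 in every library. The 3 Ebf1-KO libraries had Xist at 41026 to 47861 and the other 6 at 1.59 to 42.8, while the Y-linked gene Ddx3y was at 0.517 to 2.75 in Ebf1-KO and at 611 to 1081 in the other 6. Sex and loss of Ebf1 cannot be told apart. The 4 RasGRP genes are all autosomal. In bulk samples such as these, fewer cells of a type and less RNA per cell cannot be told apart.

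In WT cells Rasgrp1 and Rasgrp2 made up most of the RasGRP RNA. In Pax5-KO cells Rasgrp3 had the highest level of the family, and in Ebf1-KO cells Rasgrp1 and Rasgrp3 were both at under 10 reads per 10 M mapped reads and Rasgrp4 was at its highest. The RNA values of the 4 genes were known when the family was chosen. They are therefore given as a description, without p-values. Levels are reads over exons per 10 M mapped reads. Log2 fold changes are those of value + 1, a scale on which changes of low genes appear smaller, less the median of all 12839 genes tested (0.31 for Ebf1-KO over WT, 0.28 for Pax5-KO over WT and 0.05 for Ebf1-KO over Pax5-KO). All 4 genes passed the filter on low counts.

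Rasgrp1 (NM_011246, mm10 chromosome 2, 117279993 to 117342877, minus strand) was read at 842, 888 and 1044 in WT libraries 1, 2 and 3. In Ebf1-KO it was at 1.65, 1.83 and 0.862, which rested on 5 to 6 reads a library, and in Pax5-KO at 73.2, 105 and 125. The 3 genotypes did not overlap: every Ebf1-KO library was far below every Pax5-KO library, and those were below every WT library. The WT mean of 924 ± 106 (SD, n = 3) was 638 times the Ebf1-KO mean and 9.13 times the Pax5-KO mean. The log2 fold change over WT was -8.89 (SE 0.22) in Ebf1-KO and -3.49 (SE 0.22) in Pax5-KO. Between the knockouts, Ebf1-KO over Pax5-KO, it was -5.42. Of the T-lineage markers, Bcl11b stood at 164 to 179 in Ebf1-KO and at most 0.673 elsewhere. The summed level of the 8 T-lineage genes was 387 to 445 in Ebf1-KO, 14.9 to 20.8 in WT and 44.4 to 80.9 in Pax5-KO. In Ebf1-KO most of it was Bcl11b, Tcf7 (110 to 122) and Lat (94.1 to 120). Cd3g was at 11.8 to 17.1 there and at 0 in WT. Cd3e, Cd3d, Cd4 and Cd8a were at most 8.25 in any library. Cd8a was at 2.20 to 3.45 in Ebf1-KO and at 0.704 to 3.085 in WT. Rasgrp1, a gene of T cells, was thus lowest in the libraries with the highest sum of T-lineage markers. The part of these markers in the result was not tested.

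Rasgrp2 (NM_011242, chromosome 19, 6400583 to 6415216, plus strand) varied least. It was at 282, 287 and 326 in WT, at 71.8, 96.4 and 114 in Ebf1-KO and at 148, 170 and 208 in Pax5-KO. The libraries of the 3 genotypes did not overlap here either, with WT highest and Ebf1-KO lowest. The WT mean of 298 ± 24.1 was 3.18 times that of Ebf1-KO (94.0 ± 21.1) and 1.70 times that of Pax5-KO (175 ± 30.5; SD, n = 3 each). Its log2 fold change was -1.99 (SE 0.18) in Ebf1-KO and -1.05 (SE 0.18) in Pax5-KO, and -0.95 for Ebf1-KO over Pax5-KO. Of 6 megakaryocyte and platelet genes, the cells RasGRP2 is known from, Pf4 and Ppbp were at 0 in all 9 libraries. The summed level of the 6 stood at 2.11 to 3.97 in WT, at 276 to 670 in Ebf1-KO and at 124 to 236 in Pax5-KO. In the knockouts nearly all of it was Itgb3, an integrin subunit that other cells also make.

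Rasgrp3 (NM_207246, chromosome 17, 75465538 to 75529053, plus strand) was the member whose level differed in opposite directions in the knockouts. WT libraries had 65.1, 76.8 and 81.7. Ebf1-KO libraries had 6.88, 2.93 and 2.93, and Pax5-KO libraries 2038, 1711 and 1914. Every Ebf1-KO library was thus below every WT library, and every Pax5-KO library above. The Pax5-KO mean of 1888 ± 165 was 25.3 times the WT mean of 74.5 ± 8.54, which was in turn 17.5 times the Ebf1-KO mean of 4.25 ± 2.28 (SD, n = 3). The log2 fold change over WT was 4.37 (SE 0.24) in Pax5-KO and -4.23 (SE 0.24) in Ebf1-KO, and -8.62 for Ebf1-KO over Pax5-KO. A second transcript, NM_001166493, starts 29.6 kb upstream. In the authors' deposited table its log2 fold change was 4.42 in Pax5-KO and -4.48 in Ebf1-KO, against 4.42 and -4.47 for NM_207246. The 2 transcripts share most exons, so these values do not tell which start site is used.

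Rasgrp4 (NM_001174155, chromosome 7, 29134933 to 29153955, plus strand) was the one member higher in both knockouts. It was at 28.3, 27.8 and 42.0 in WT, at 174, 224 and 227 in Ebf1-KO and at 76.6, 56.1 and 99.1 in Pax5-KO. All 3 Ebf1-KO libraries were above all 3 Pax5-KO libraries, and these above all 3 WT libraries. The Ebf1-KO mean of 208 ± 29.5 was 6.37 times, and the Pax5-KO mean of 77.3 ± 21.5 was 2.36 times, the WT mean of 32.7 ± 8.06 (SD, n = 3). Its log2 fold change was 2.34 (SE 0.23) in Ebf1-KO, 0.92 (SE 0.23) in Pax5-KO and 1.40 for Ebf1-KO over Pax5-KO. The authors' deposited lists of higher and lower transcripts hold NM_001174155 for Ebf1-KO (2.35), but no Rasgrp4 transcript for Pax5-KO. Its last exon overlaps Fam98c, a gene on the opposite strand, over 506 exon bases, 39.9% of the exon length of Fam98c and 10.9% of that of Rasgrp4. Whether the authors' counting used strand is not stated in the sources used here. Fam98c was at 26.6, 25.0 and 40.9 in WT, at 74.8, 77.3 and 87.6 in Ebf1-KO and at 55.0, 44.1 and 86.5 in Pax5-KO, so it followed Rasgrp4 library by library in WT. Without strand, reads from the shared exon bases cannot be told apart, and the levels of Rasgrp4 are uncertain by the share that falls there. Of 8 mast cell markers, Ms4a2, Fcer1a, Mcpt4, Tpsb2 and Cma1 were at 0 in all 9 libraries and Cpa3 was at most 1.90. The list's sum, almost all Kit (a receptor that progenitors also carry), stood at 246 to 328 in WT, at 1167 to 1651 in Ebf1-KO and at 94.4 to 152 in Pax5-KO. The sum of 7 neutrophil and monocyte genes was 0.352 to 1.96 in WT, 137 to 230 in Ebf1-KO and 52.3 to 77.2 in Pax5-KO. Nearly all of it in Ebf1-KO was Mpo (131.18 to 219.17), as was most of it in Pax5-KO (35.177 to 51.745). Prtn3 was higher in Pax5-KO (12.993 to 21.439) than in Ebf1-KO (0.825 to 6.035). Ctsg, S100a8 and S100a9 were at 0 in all 9 libraries, and Elane was at most 0.172. The part of this sum in the result was not tested.

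In the all-gene test (limma on log2(value + 1), Benjamini-Hochberg adjusted p under 0.05, two-sided), all 4 members passed in each comparison. For Ebf1-KO against WT, 3 were lower, where 14.4% of all genes tested were called lower, and 1 was higher, where 40.8% were. For Pax5-KO against WT, 2 were lower (11.9% of all genes) and 2 higher (34.7%). For Ebf1-KO against Pax5-KO, 3 were lower (13.3%) and 1 higher (17.5%). These counts follow from how the family was chosen. The share of all genes whose genotypes did not overlap was not counted, so the lack of overlap is a description of these 4 genes only. When reads were scaled by TMM, which sets the typical gene to no change, 3609 genes were lower and 3851 higher for Ebf1-KO against WT, where the authors' scaling gave 1855 and 5240. For Pax5-KO against WT the split was 3075 lower and 3324 higher, where the authors' scaling gave 1525 and 4451. The members kept their directions.

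**Figure D1:**
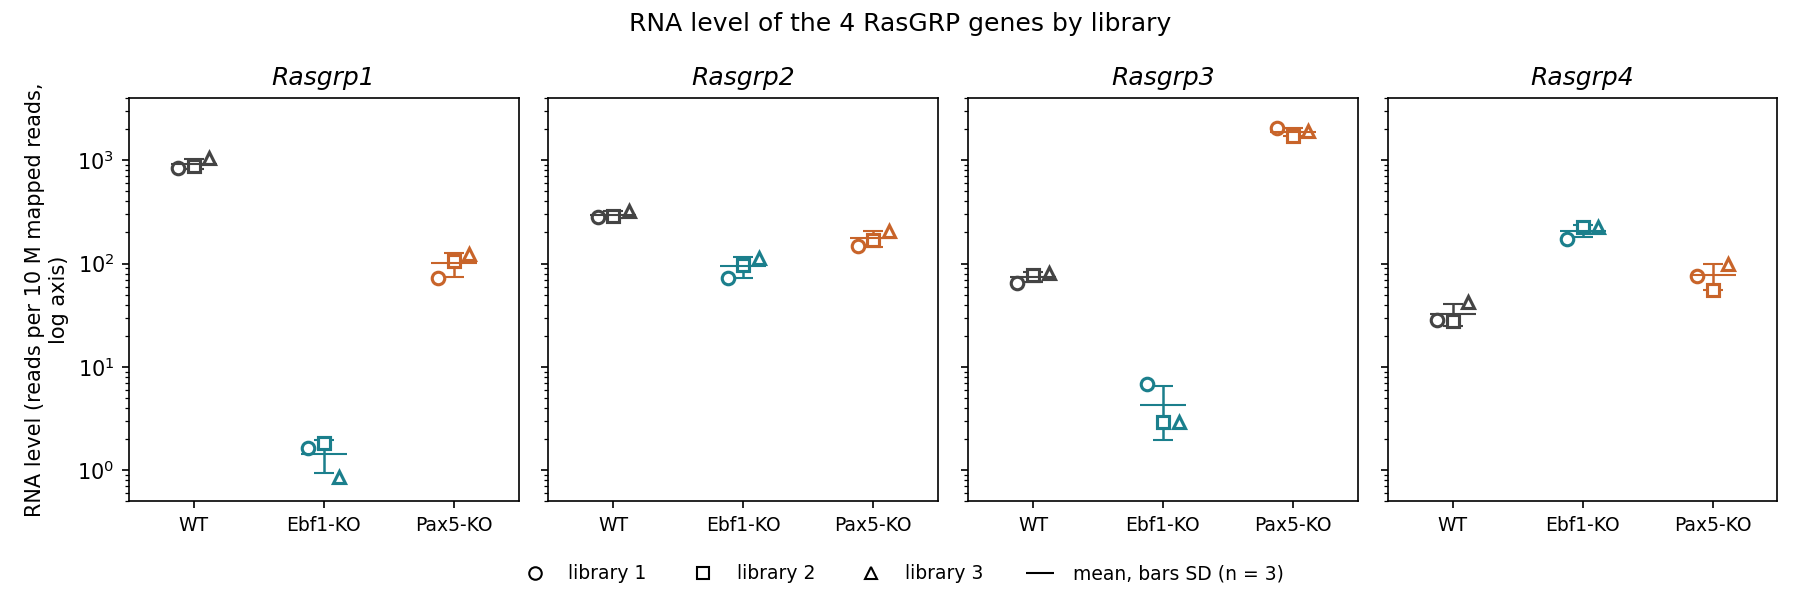
RNA level of each RasGRP gene in the 9 libraries, on a log axis (reads per 10 M mapped reads); each symbol is a library, and the horizontal bars show the mean with SD (n = 3). In Rasgrp3 the Pax5-KO libraries lie near 1888 and the Ebf1-KO libraries near 4.25, on either side of WT.

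Levels of different genes can be compared per length. As reads per kb of transcript per 10 M mapped reads, Rasgrp1 (182 ± 20.8) and Rasgrp2 (137 ± 11.1) stood highest in WT, followed by Rasgrp3 (16.03 ± 1.84) and Rasgrp4 (7.10 ± 1.75; SD, n = 3). In Ebf1-KO, Rasgrp4 (45.2 ± 6.40) and Rasgrp2 (43.2 ± 9.71) did not differ beyond their spread. Rasgrp3 (0.914 ± 0.490) and Rasgrp1 (0.285 ± 0.101) followed far below. In Pax5-KO, Rasgrp3 (406 ± 35.5) was highest, then Rasgrp2 (80.64 ± 14.01), and Rasgrp1 (19.9 ± 5.15) and Rasgrp4 (16.8 ± 4.67) did not differ beyond their spread. The 4 levels summed to 342 ± 35.1 in WT, to 89.6 ± 15.3 in Ebf1-KO and to 524 ± 38.9 in Pax5-KO. Rasgrp1 and Rasgrp2 accounted for 53.1% and 40.2% of the sum in WT. In Ebf1-KO, Rasgrp2 and Rasgrp4 accounted for 47.9% and 50.6%, and in Pax5-KO Rasgrp3 alone for 77.6%. The lowest library of Pax5-KO (480) lay above the highest of WT (382), and the lowest of WT (315) above the highest of Ebf1-KO (102). Most of the difference in make-up lay between genotypes: within a genotype the share of the leading gene spanned 52.5 to 53.7% in WT (Rasgrp1), 48.1 to 52.1% in Ebf1-KO (Rasgrp4) and 74.4 to 81.6% in Pax5-KO (Rasgrp3).

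**Figure D2:**
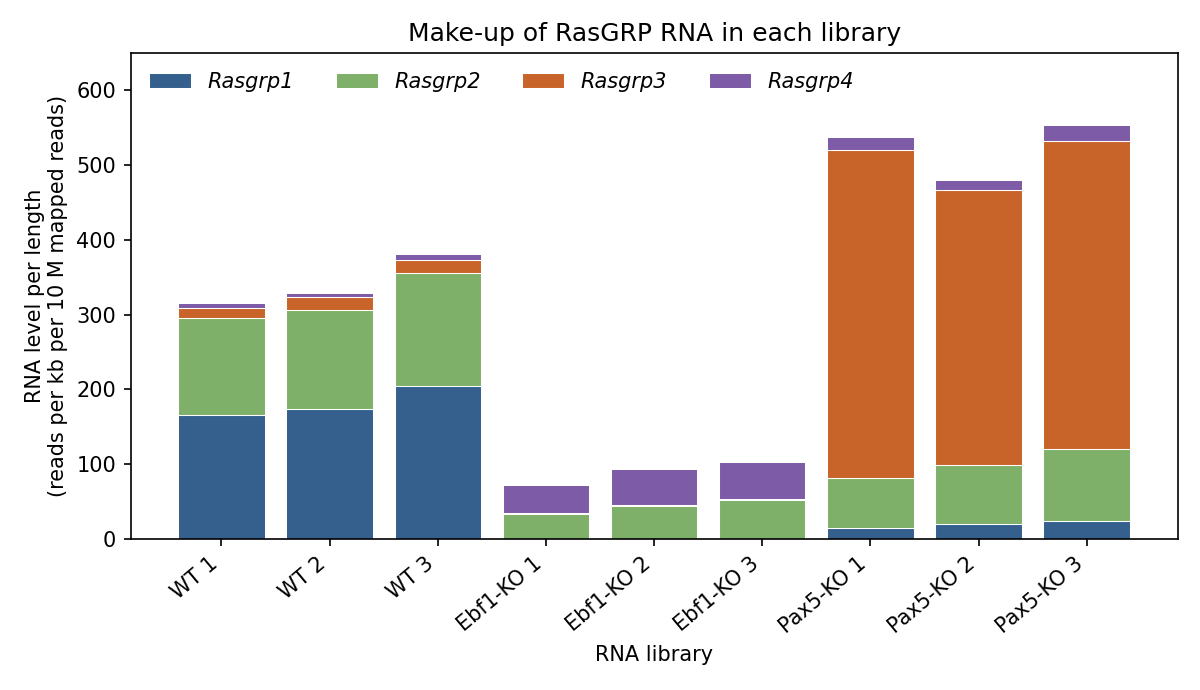
Stacked RNA levels of the 4 RasGRP genes in each library, in reads per kb of transcript per 10 M mapped reads. The bars sum to 315 to 382 in WT, mostly Rasgrp1 and Rasgrp2, to 72.6 to 102 in Ebf1-KO, mostly Rasgrp2 and Rasgrp4, and to 480 to 554 in Pax5-KO, mostly Rasgrp3.

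The genes whose pattern over the 9 RNA libraries was most like that of each member were found by Pearson's r of log2(value + 1) among 11881 other genes. The points share libraries and fall into 3 genotypes, so r reflects mainly the order and spacing of the genotypes. For Rasgrp1 these were Eif4e3 (r = 0.998), Syce2 (0.997) and Sbf2 (0.997). Eif4e3, a cap-binding protein of the eIF4E family, had means of 393, 6.58 and 89.6 in WT, Ebf1-KO and Pax5-KO. For Rasgrp2 they were Nlrc4 (r = 0.986), Ucp2 (0.985) and Sbk1 (0.985). Ucp2, a carrier of the inner mitochondrial membrane, had means of 10276, 2135 and 5409 in that order. For Rasgrp3 they were Ephb4 (r = 0.997), Csf2rb (0.997) and Lin28b (0.996). Lin28b, an RNA-binding protein of fetal blood progenitors, had means of 253, 60.4 and 1663 in the same order, and Ephb4, a receptor tyrosine kinase, of 10.4, 0.665 and 140. For Rasgrp4 they were Siglecf (r = 0.992), Mfsd10 (0.991) and Tmem43 (0.991), and Siglecf, a sialic acid-binding receptor of eosinophils, had means of 0.305, 18.9 and 2.73.

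ATAC signal was measured, in separate libraries, at peaks bound by EBF1 only (7815), by PAX5 only (5033) or by both factors (1529), by the authors' deposited peak sets. Of these, 1 EBF1-only peak was annotated to Rasgrp1, 2 PAX5-only peaks and 1 shared peak to Rasgrp3, and none to Rasgrp2 or Rasgrp4. The sequences of 3 of the 4 peaks are shown for the motif matches described below. The ATAC signal was counted over the deposited peak windows and does not depend on the sequence. They were read from the RefSeq genome GRCm38.p6 (the mm10 build of the files), plus strand, 5′ to 3′. Capitals mark the EBF1 motif core CCCNNGGG or the full EBF1 palindrome (the same core with a T before it and an A after it). Both strands were searched, and each palindrome contains a core. A match describes these letters only.
Rasgrp1 EBF1-only peak, chr2:117447061-117447331: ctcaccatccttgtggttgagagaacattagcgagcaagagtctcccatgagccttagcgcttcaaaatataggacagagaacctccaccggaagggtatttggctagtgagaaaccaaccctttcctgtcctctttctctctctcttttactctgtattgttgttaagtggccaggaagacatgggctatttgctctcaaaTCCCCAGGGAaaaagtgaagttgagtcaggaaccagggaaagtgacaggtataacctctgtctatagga
Rasgrp3 shared peak, chr17:75443092-75443386: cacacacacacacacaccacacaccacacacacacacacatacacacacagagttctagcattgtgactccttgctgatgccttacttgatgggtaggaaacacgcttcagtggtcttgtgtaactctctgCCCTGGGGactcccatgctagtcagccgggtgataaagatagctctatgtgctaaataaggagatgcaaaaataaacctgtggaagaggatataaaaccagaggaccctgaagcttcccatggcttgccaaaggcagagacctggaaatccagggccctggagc
Rasgrp3 PAX5-only intronic peak, chr17:75441957-75442205: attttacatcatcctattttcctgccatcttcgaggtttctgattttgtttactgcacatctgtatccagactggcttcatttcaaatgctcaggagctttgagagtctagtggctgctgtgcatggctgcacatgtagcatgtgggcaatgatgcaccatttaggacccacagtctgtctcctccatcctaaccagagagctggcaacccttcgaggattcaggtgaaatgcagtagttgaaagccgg

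The Rasgrp1 peak held 1 full EBF1 palindrome, at 117447263 to 117447272 on chromosome 2. The palindrome was found in 27.2% of the EBF1-only peaks, all 271 bases long, in 14.1% of shared peaks (271 to 519 bases) and in 0.775% of PAX5-only peaks (249 bases). The shared Rasgrp3 peak held 1 EBF1 core without the palindrome's flanks, at 75443223 to 75443230, which is inside the EBF1 peak of the deposited list. A core was found in 44.9% of shared peaks. Neither EBF1 motif was found in the intronic PAX5-only peak.

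The peak annotated to Rasgrp1 lies between genes, 104 kb upstream of the start site, and was the one peak of the family with more ATAC signal in both knockouts. Signal, in tags per 10 M tags, stood at 7.19, 6.27 and 6.21 in WT, at 20.6, 26.3 and 25.6 in Ebf1-KO and at 14.5, 11.7 and 11.3 in Pax5-KO. The genotypes did not overlap, with Ebf1-KO highest and WT lowest, the reverse of the order of Rasgrp1 RNA. The values rested on 11 to 24 tags in WT and 26 to 87 in the knockouts. Signal changed over WT by a log2 fold (value + 1) of 1.73 (SE 0.27, limma adjusted p = 2.23e-08) in Ebf1-KO and 0.83 (SE 0.27, adjusted p = 0.0061) in Pax5-KO, and signal was higher in 3 of 3 libraries of each. Ebf1-KO over Pax5-KO was 0.90 (limma adjusted p = 0.00775), where 9.06% of all peaks were called higher and 12.6% lower. Signal thus rose in both knockouts at this peak, while over all 14365 peaks tested 3.28% were called higher and 51.1% lower in Ebf1-KO against WT, and 2.11% higher and 51.5% lower in Pax5-KO against WT. Among EBF1-only peaks, 1.78% were higher and 45.4% lower in Ebf1-KO.

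At the 3 bound peaks of Rasgrp3 ATAC signal was lower in both knockouts, also in Pax5-KO, where Rasgrp3 RNA was highest. Lower signal was common in these classes. Of all shared peaks 76.4% were called lower in Ebf1-KO and 76.5% in Pax5-KO against WT, and of PAX5-only peaks 52.4% and 61.0%. The shared peak lies in intron 1 of NM_001166493, 7.33 kb downstream of that start and 22.3 kb upstream of the start of NM_207246. Its signal stood at 68.6, 34.5 and 47.9 in WT, at 0.39, 1.51 and 1.28 in Ebf1-KO and at 1.76, 5.57 and 3.04 in Pax5-KO. The lowest WT library was above the highest of either knockout, and the 2 knockouts did not overlap. Relative to WT, the log2 fold change was -4.63 (SE 0.32, limma adjusted p = 1.65e-23) in Ebf1-KO and -3.56 (SE 0.32, adjusted p = 3.93e-17) in Pax5-KO, each in 3 of 3 libraries. Ebf1-KO over Pax5-KO was -1.07 (limma adjusted p = 0.00832), but this rested on 1 to 5 tags a library in Ebf1-KO and 5 to 21 in Pax5-KO. It did not pass without Ebf1-KO 1 (-0.81, adjusted p = 0.0849), without Pax5-KO 2 (-0.74, adjusted p = 0.15) or with 5 added before the log (-0.46, adjusted p = 0.115). In the authors' deposited lists the EBF1 and PAX5 peaks here had scores of 12.5 and 75.6.

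The PAX5-only intronic peak lies in the same intron, 6.18 kb downstream of the start of NM_001166493, and had less signal. It stood at 17.6, 5.13 and 7.77 in WT, at 0.39, 1.21 and 2.56 in Ebf1-KO and at 1.76, 0.80 and 0.87 in Pax5-KO. All WT libraries were above all knockout libraries, the knockouts overlapped, and WT 1 was more than the other WT libraries together. On the log2 scale the fold change was -2.17 (SE 0.39, limma adjusted p = 8.51e-07) in Ebf1-KO and -2.25 (SE 0.39, adjusted p = 5.19e-07) in Pax5-KO. Ebf1-KO over Pax5-KO was 0.08 (SE 0.39, limma adjusted p = 0.921), and its sign turned when single libraries were left out. The knockouts held 1 to 8 tags a library at this peak.

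The PAX5-only peak at the promoter of NM_207246 kept some signal in Pax5-KO. It was at 70.6, 30.8 and 60.3 in WT, at 4.28, 6.35 and 9.60 in Ebf1-KO and at 25.8, 12.5 and 12.2 in Pax5-KO. The 3 genotypes did not overlap, although Pax5-KO 1 (25.8) was close to WT 2 (30.8). This corresponds to a log2 fold change of -2.80 (SE 0.28, limma adjusted p = 6.95e-15) in Ebf1-KO and -1.63 (SE 0.28, adjusted p = 7.69e-07) in Pax5-KO. Ebf1-KO over Pax5-KO was -1.18 (limma adjusted p = 0.000896), so that signal at this promoter was lower in Ebf1-KO than in Pax5-KO, as was Rasgrp3 RNA.

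The medians of all peaks were -0.78 for Ebf1-KO over WT, -0.75 for Pax5-KO over WT and -0.02 for Ebf1-KO over Pax5-KO, so under the authors' scaling the typical bound peak had less signal in both knockouts. Less these medians, the Rasgrp1 peak was at 2.51 in Ebf1-KO and 1.57 in Pax5-KO. The Rasgrp3 peaks were at -3.85 and -2.82 (shared), -1.39 and -1.51 (intronic), and -2.02 and -0.88 (promoter). With TMM scaling, 2924 peaks were higher and 4274 lower in Ebf1-KO against WT, where the authors' scaling gave 471 and 7346. In Pax5-KO against WT 1978 were higher and 3057 lower, where the authors' scaling gave 303 and 7405. The 4 peaks passed against WT in both knockouts under TMM too, the promoter peak in Pax5-KO with a log2 fold change of -0.72 (limma adjusted p = 0.0138).

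**Figure D3:**
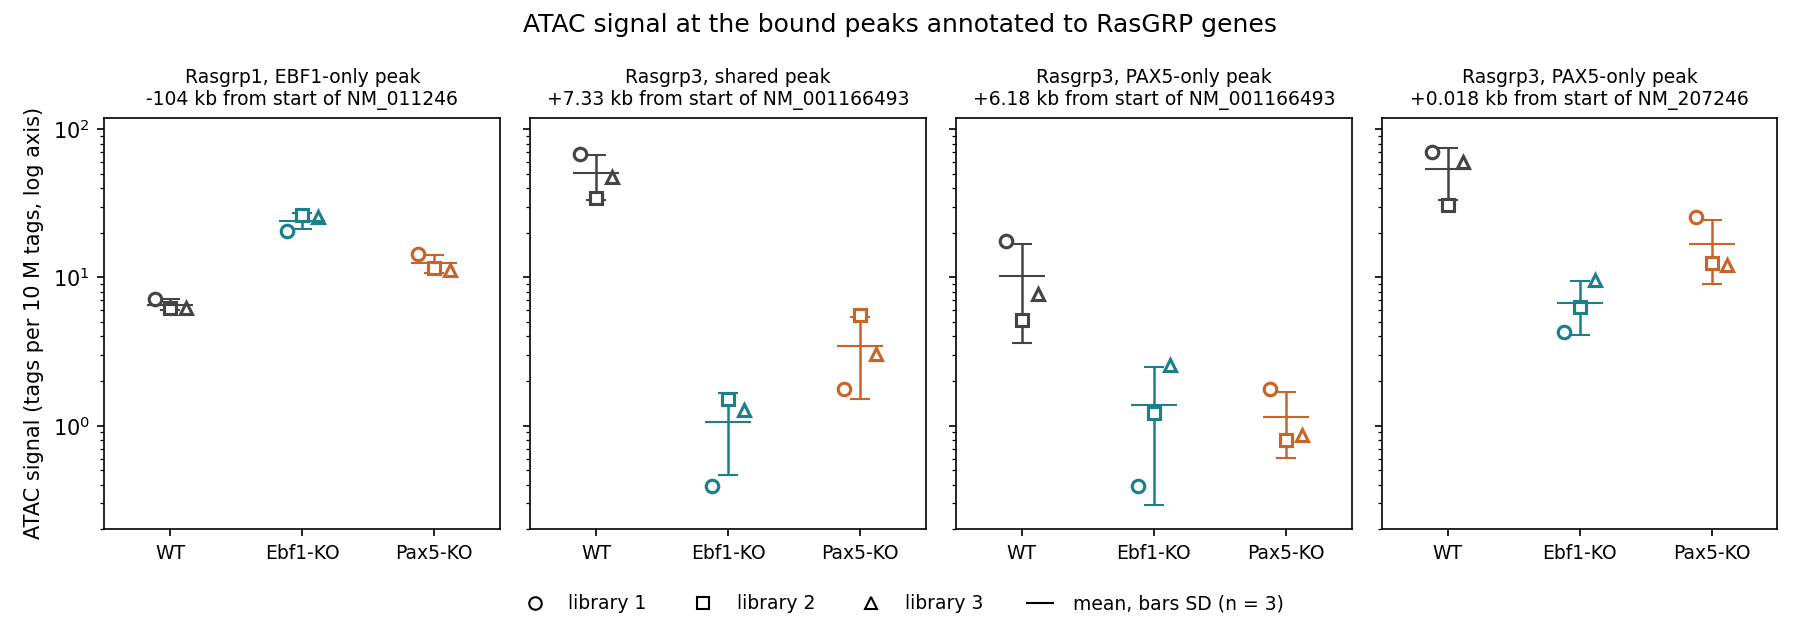
ATAC signal (tags per 10 M tags, log axis) at the 4 bound peaks annotated to RasGRP genes, by library, with the mean and SD (n = 3); panel titles give the distance to the annotated start site. The Rasgrp1 peak is highest in Ebf1-KO (20.6 to 26.3), and the shared Rasgrp3 peak is at 34.5 to 68.6 in WT and at most 5.57 in the knockouts.

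One more PAX5-only peak lies inside Rasgrp2, in intron 12, although the deposited annotation assigns it to Nrxn2. It was chosen after its values were seen. Its signal stood at 3.92, 6.55 and 6.99 in WT, at 1.56, 0.91 and 0.96 in Ebf1-KO and at 2.47, 2.12 and 1.74 in Pax5-KO, from 3 to 27 tags a library. Relative to WT, the log2 fold change was -1.65 (limma adjusted p = 6.71e-05) in Ebf1-KO and -1.11 (adjusted p = 0.008) in Pax5-KO. The first did not pass with quantile normalization (-0.57, limma adjusted p = 0.18). The second did not pass with quantile normalization (-0.25, limma adjusted p = 0.59), TMM scaling (-0.39, adjusted p = 0.435), edgeR (-0.68, adjusted p = 0.237) or DESeq2 (-0.67, adjusted p = 0.437). It did not pass without WT 3 (-0.98, limma adjusted p = 0.0551) or without the libraries numbered 2 (-1.02, adjusted p = 0.0548) either. The stretch is also covered by Gm14965, a non-coding gene on the other strand.

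Other genes of the Ras pathway were followed through 10 lists with 101 genes, of which 90 were tested. For Ebf1-KO against WT 39 were called higher and 25 lower (34 and 31 under TMM scaling), 43.3% and 27.8% of those tested, where 40.8% and 14.4% of all genes were. For Pax5-KO against WT 37 were higher and 22 lower (30 and 32 under TMM), 41.1% and 24.4% of those tested, beside 34.7% and 11.9% of all genes. For Ebf1-KO against Pax5-KO 27 were higher and 17 lower (30 and 19 under TMM), where 17.5% and 13.3% of all genes were. The shares called in each list below stand against the same background. Their median log2 fold change, less that of all genes, was 0.04, -0.01 and 0.00 in the 3 comparisons. Levels in the next paragraphs are means ± SD (n = 3) on the scale used for the members, and adjusted p-values are from limma over all genes. Log2 fold changes there are less the median of all genes, but each p-value tests the fold change before the median is taken off. For small changes the call can therefore differ from that on the printed value.

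Among the other exchange factors for Ras, 3 of 4 were tested, and for Ebf1-KO against WT all 3 were called higher (2 under TMM). Sos2, a widely expressed exchange factor that the adaptor GRB2 recruits, was at 442 ± 114 in WT, at 972 ± 92.3 in Ebf1-KO (log2 fold change 0.86, limma adjusted p = 4.72e-05) and at 668 ± 53.6 in Pax5-KO (0.35, adjusted p = 0.00972). Rasgrf2, a calcium-responsive exchange factor, had 1 read in the WT libraries together. It was at 10.6 ± 2.11 in Ebf1-KO and 56.65 ± 2.28 in Pax5-KO, where it was 137 times (95% interval 24.1 to 5450) and 731 times (131 to 28900) the WT level, with intervals for counting error only. The limma adjusted p-values were 2.8e-09 and 1.42e-11. Of the Rap exchange factors 5 of 6 were tested, with 3 higher and 1 lower in Ebf1-KO against WT (3 and 2 under TMM). In Pax5-KO against WT 2 were higher and 1 lower, but 2 and 3 under TMM. Rapgef5 was at 291 ± 39.3 in WT and had no read in Ebf1-KO, at least 1200-fold lower with a floor of 3 reads over the group, and 0.275 ± 0.0472 in Pax5-KO (limma adjusted p = 1.26e-13 and 4.42e-13). Rapgef3, which cyclic AMP activates, was at 1.27 ± 0.926 in WT and rose to 18.2 ± 6.66 in Ebf1-KO and 35.5 ± 5.84 in Pax5-KO (limma adjusted p = 7.64e-07 and 5.17e-08).

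The GTPases themselves differed less. Of 10 tested, 5 were higher and 1 lower in Ebf1-KO against WT, and 5 higher and none lower in Pax5-KO (4 and 2, and 3 and 2, under TMM). Rap2a rose from 23.5 ± 6.32 in WT to 185 ± 21.2 in Ebf1-KO (2.65, limma adjusted p = 4.5e-08) and was at 41.0 ± 10.9 in Pax5-KO. Of the GTPase-activating proteins, which switch Ras and Rap off, 15 were tested. In Ebf1-KO 8 were higher and 4 lower (8 and 5 under TMM). In Pax5-KO 5 were higher and 4 lower, but 4 and 6 under TMM. Rap1gap2 fell from 124 ± 9.31 to 14.01 ± 5.72 in Ebf1-KO (-3.45, limma adjusted p = 3.53e-07) and 1.43 ± 0.661 in Pax5-KO (-6.01, adjusted p = 5.39e-10). Dab2ip fell from 90.0 ± 14.9 to 18.5 ± 2.76 in Pax5-KO (-2.50, limma adjusted p = 3.76e-07). Rasa4 moved in opposite directions, from 14.1 ± 2.22 in WT to 32.15 ± 2.33 in Ebf1-KO (0.83, limma adjusted p = 0.00126) and 5.94 ± 2.19 in Pax5-KO (-1.45, adjusted p = 0.00143).

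Enzymes around diacylglycerol, the lipid that recruits RasGRP proteins, changed in both directions. Of 6 phospholipases C tested, 3 were higher and 2 lower in Ebf1-KO against WT, and 4 and 1 in Pax5-KO. Plcg1, which antigen receptors activate, fell from 426 ± 25.9 to 224 ± 13.7 in Ebf1-KO (-1.23, limma adjusted p = 3.38e-05) and 173 ± 16.7 in Pax5-KO (-1.58, adjusted p = 1.27e-06). Plcg2, named after its values were seen, stood higher than Plcg1 in every genotype. It was at 1067 ± 176 in WT, at 1240 ± 103 in Ebf1-KO (-0.08, limma adjusted p = 0.22) and at 1912 ± 255 in Pax5-KO (0.57, adjusted p = 0.000317). Plcb4, which G proteins activate, rose from 0.809 ± 0.405 to 131 ± 11.6 in Pax5-KO (5.93, limma adjusted p = 1.09e-11) and to 5.36 ± 0.794 in Ebf1-KO (1.53, adjusted p = 7.14e-06). Diacylglycerol kinases remove the lipid, and of 7 tested 3 were higher and 2 lower in Ebf1-KO (2 and 2 under TMM). In Pax5-KO 2 were higher and 2 lower (1 and 2 under TMM). Dgka fell from 309 ± 13.4 to 35.7 ± 2.13 in Ebf1-KO (-3.38, limma adjusted p = 1.28e-10) and 154 ± 18.8 in Pax5-KO (-1.28, adjusted p = 6.19e-05), the same order of genotypes as Rasgrp1 and Rasgrp2. Dgkg rose from 0.252 ± 0.239 to 50.8 ± 3.15 in Ebf1-KO (5.08, limma adjusted p = 1.28e-10).

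The protein kinases C and D, which bind diacylglycerol as RasGRP proteins do, were lower in 6 of 9 tested in Ebf1-KO and higher in 1, also under TMM, with a median log2 fold change of -1.74. In Pax5-KO 5 were lower and 4 higher (5 and 3 under TMM), with a median of -1.17. Prkcb, the main protein kinase C of B-cell receptor signalling, fell from 5462 ± 936 in WT to 97.3 ± 11.1 in Ebf1-KO (-6.09, limma adjusted p = 3.48e-13) and 1924 ± 372 in Pax5-KO (-1.79, adjusted p = 2.73e-06). Prkcq, the isoform best known from T cells, was at 34.1 ± 2.36 in WT, had no read in Ebf1-KO, at least 141-fold lower with a floor of 3 reads over the group, and was at 1.30 ± 0.971 in Pax5-KO (limma adjusted p = 7.41e-10 and 2.01e-08). Prkd2 fell from 640 ± 95.6 to 138 ± 11.7 in Ebf1-KO and 54.2 ± 19.4 in Pax5-KO (limma adjusted p = 7.84e-07 and 4.04e-09). Prkce, like Rasgrp3, differed in opposite directions: it was at 278 ± 33.3 in WT, at 104 ± 24.2 in Ebf1-KO (-1.74, limma adjusted p = 3.36e-06) and at 551 ± 42.0 in Pax5-KO (0.71, adjusted p = 0.000207).

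Of the 15 adaptors and kinases that link receptors to phospholipase C and Ras, 7 were higher and 4 lower in Ebf1-KO against WT (7 and 6 under TMM), and 6 and 5 in Pax5-KO (6 and 6). Blnk, the adaptor of the pre-B-cell and B-cell receptors, fell from 1151 ± 167 to 0.990 ± 0.340 in Ebf1-KO and 0.480 ± 0.578 in Pax5-KO (log2 fold changes -9.49 and -9.95, limma adjusted p = 3.86e-13 and 5.35e-13). Zap70, the kinase of the T-cell receptor, rose from 0.276 ± 0.247 to 91.6 ± 21.6 in Ebf1-KO and 33.0 ± 9.50 in Pax5-KO (log2 fold changes 5.87 and 4.44, limma adjusted p = 2.25e-11 and 8.79e-10). Its level was highest in the Ebf1-KO libraries, where the T-lineage marker sum, mostly Bcl11b, Tcf7 and Lat, was also highest. The part of other cells was not tested. Lcp2, which works with both kinds of receptor, was at 115 ± 34.1 in WT, at 58.6 ± 21.2 in Ebf1-KO and at 3.85 ± 0.891 in Pax5-KO, and its log2 fold change for Ebf1-KO over Pax5-KO was 3.51 (limma adjusted p = 1.32e-07).

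Downstream of Ras, 10 genes of the RAF-MEK-ERK cascade were tested. In Ebf1-KO 4 were higher and none lower (4 and 1 under TMM), beside 40.8% and 14.4% of all genes. In Pax5-KO 3 were higher and 1 lower (2 and 2 under TMM), beside 34.7% and 11.9% of all genes. The scaffold Ksr1 rose from 14.96 ± 1.15 to 105 ± 25.4 in Ebf1-KO (2.40, limma adjusted p = 2.06e-08) and was at 12.8 ± 0.117 in Pax5-KO (-0.49, adjusted p = 0.42). Mapk3, which encodes ERK1, rose from 154 ± 22.1 to 290 ± 20.4 in Ebf1-KO (0.61, limma adjusted p = 0.000623). Of 10 feedback inhibitors, several of which ERK signalling itself induces, 2 were higher and 5 lower in Ebf1-KO (0 and 5 under TMM), and 4 and 3 in Pax5-KO (3 and 5). Dusp6, a phosphatase of ERK, fell from 69.7 ± 29.7 to 22.1 ± 4.95 in Ebf1-KO (-1.83, limma adjusted p = 0.000844) and 7.81 ± 2.37 in Pax5-KO (-3.21, adjusted p = 2.04e-06). Spry2 fell from 49.8 ± 6.33 to 2.40 ± 0.908 in Ebf1-KO (-4.23, limma adjusted p = 1.07e-09) and was at 40.6 ± 6.03 in Pax5-KO (-0.57, adjusted p = 0.316). Under TMM scaling Spry2 passed as lower in Pax5-KO too (-0.56, limma adjusted p = 0.0274). Dusp4 was at 6.94 ± 3.52 in WT, at 2.41 ± 0.617 in Ebf1-KO (-1.43, limma adjusted p = 0.00807) and at 14.4 ± 1.83 in Pax5-KO (0.79, adjusted p = 0.0135). Its Ebf1-KO and WT libraries overlapped.

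**Figure D4:**
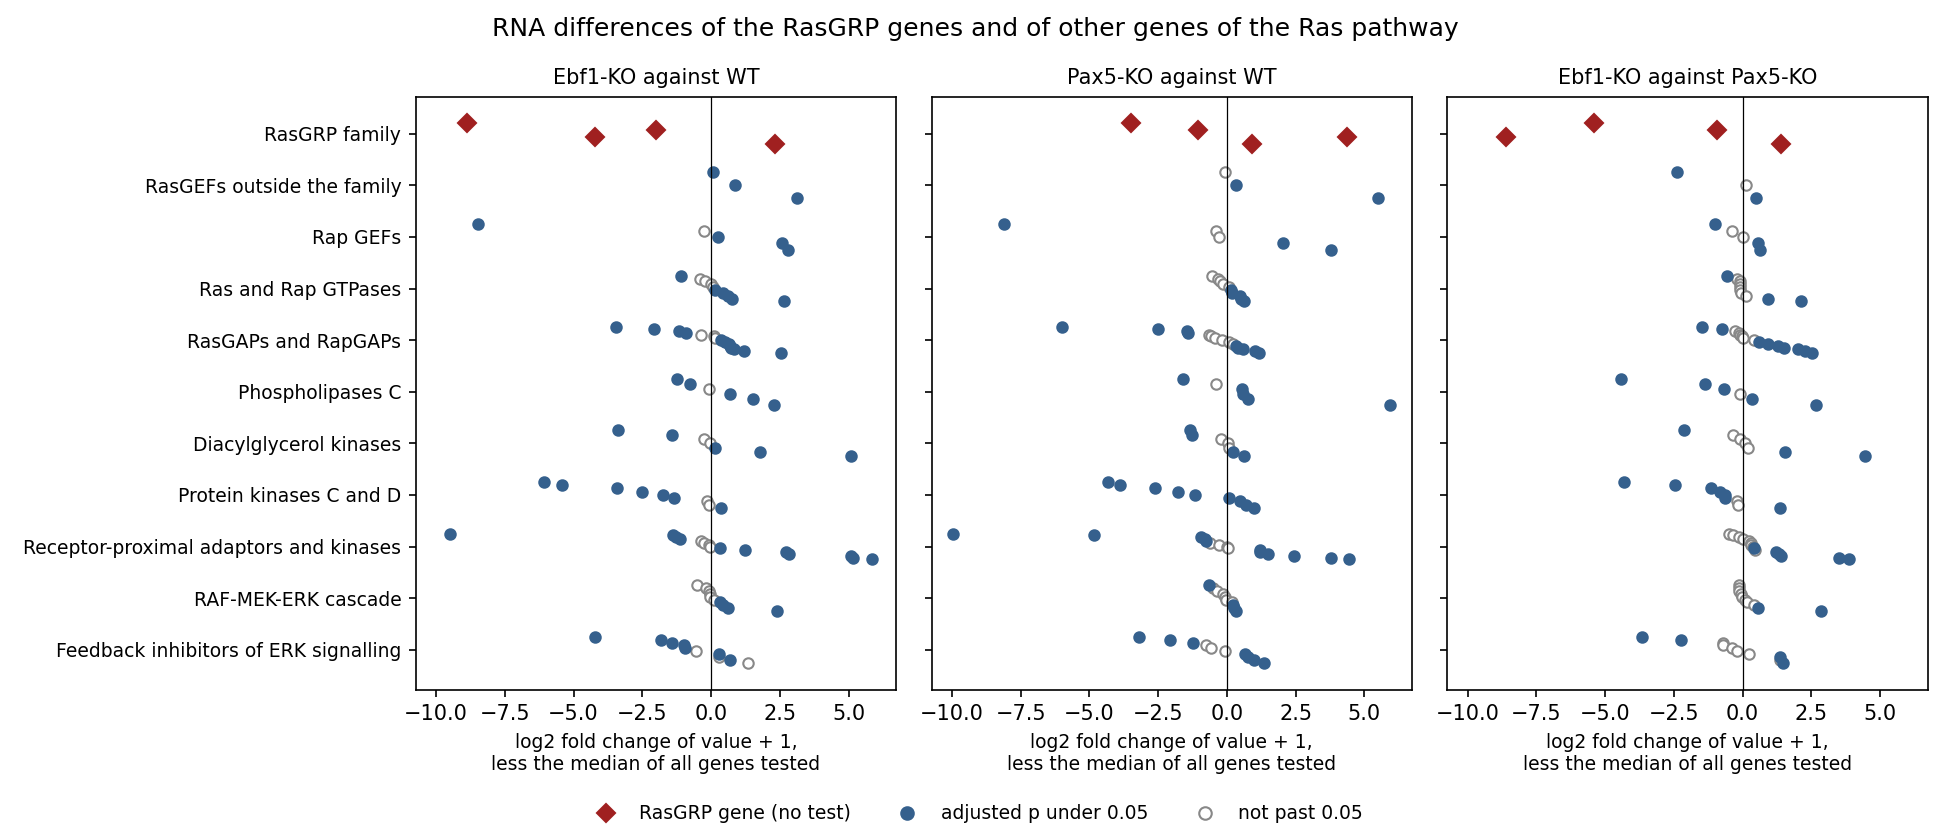
Log2 fold change of RNA (value + 1, less the median of all genes tested) in the 3 comparisons. Diamonds are the 4 RasGRP genes, shown without p-values because their RNA values were known when the family was chosen. Circles are the tested genes of 10 Ras pathway lists, filled where the limma adjusted p was under 0.05. Most points of the RAF-MEK-ERK cascade lie near 0, while the RasGRP genes span -8.89 to 2.34 for Ebf1-KO against WT and -3.49 to 4.37 for Pax5-KO against WT.

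The libraries numbered 2 had the highest RNA level of 5 stroma genes (Col1a1, Col1a2, Col3a1, Cxcl12 and Fn1) in each genotype, with sums of 195, 86.5 and 132 in WT, Ebf1-KO and Pax5-KO, against 6.27 to 84.8 in the other 6. The 5 were chosen from a list of 9 after their values were seen. The sum of all 9 stood at 139 to 309 in WT, at 390 to 467 in Ebf1-KO and at 81.5 to 231 in Pax5-KO, and in Ebf1-KO Pdgfrb made up 335 to 448 of it, while Dcn was at 0 throughout. Without these 3 libraries the log2 fold changes of the RasGRP genes kept their directions. The direct contrast of the knockouts did not pass at the Rasgrp1 peak (0.80, limma adjusted p = 0.095) or at the shared Rasgrp3 peak (-0.91, adjusted p = 0.0973) when the ATAC libraries numbered 2 were left out, while the promoter peak of Rasgrp3 still passed. Leaving out the Ebf1-KO library numbered 2 alone gave 0.84 (limma adjusted p = 0.0523) at the Rasgrp1 peak, and quantile normalization 0.54 (adjusted p = 0.0717).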

How the data were processed

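RNA and ATAC were each sequenced in 9 libraries of mouse fetal liver pro-B cells, and the titles gave the genotype and number of each. Per the labels, RNA was read for 76 cycles and ATAC libraries came from 80 k cells. The submitters' processing notes name TopHat, edgeR and DESeq2 among the RNA tools, Bowtie2 for ATAC and HOMER for both, without versions, and the build mm10 (GRCm38). Per the file headers, the deposited gene table holds the authors' signal per gene as reads over exons scaled to 10 M mapped reads, 1 transcript a gene. The ATAC tables hold the authors' signal per ChIP peak as tags scaled to 10 M. The peak score and the log2 fold change per transcript were deposited by the authors.

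For RNA the value of 1 read was recovered from the low values, and for ATAC from the tag totals in the file headers. All values then came out whole to within 0.1 reads. The RNA values gave 27.3 to 89.1 M mapped reads, 47.0 to 71.4% of them in exons. Because the values are normalized, limma 3.58.1 (trend; R 4.3.3) on log2(value + 1) was the test, in 1 model per assay over 9 libraries. Genes had to pass edgeR's filterByExpr and peaks to hold at least 10 tags in all. A gene or peak was called where its two-sided p, adjusted by Benjamini-Hochberg over all genes or peaks, was under 0.05. For RNA this p tests the fold change before the all-gene median is taken off. The fit was tested on simulated data. The members, lists and tests were chosen with earlier results of these data known. Pathway genes are named where, within a list and comparison, they were among the 2 largest called changes with a group mean of at least 5 and groups that did not overlap. Values of those genes in the other comparisons are given beside them, and not every gene that met the rule is described. The 3 most similar genes per member had a mean of at least 5. In RNA, libraries with the same number in different genotypes deviated together (r from 0.12 to 0.44 for all 9 pairs). Alternatives were pseudocounts of 0.25 and 5, TMM scaling, quantile normalization, no filter, edgeR 4.0.16 and DESeq2 1.42.0 on recovered reads, a replicate block, fits of 2 groups, and leaving out libraries. In some WT libraries no shared peak holds exactly 1 tag, so the step cannot be read from that table's values alone. Its tag numbers rest on the header totals, and it was left out of edgeR and DESeq2. Other tools were Python 3.11.15, pandas 2.3.3, NumPy 2.4.6, pysam and matplotlib 3.10.9. Per-sample values in 36 columns of the authors' transcript tables were not used. Some genes, 1 peak sequence, matches to a PAX5 motif and promoter windows are not reported here.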

Additional observations from a re-analysis of the deposited data

Results flagged for a closer look

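Rasgrp3 RNA differed from WT in opposite directions in the knockouts, with a log2 fold change less the all-gene median of -4.23 with Ebf1 missing and 4.37 with Pax5 missing, and every library of a knockout lay on its side of every WT library. Rasgrp3 was chosen with its RNA values known, so its call in the all-gene fit is a description, and the difference was not tested on independent values. At 3 bound peaks the knockouts themselves differed in ATAC signal (limma, Ebf1-KO over Pax5-KO). The log2 fold change was 0.90 at the Rasgrp1 peak (adjusted p = 0.00775), -1.07 at the shared Rasgrp3 peak (adjusted p = 0.00832) and -1.18 at the Rasgrp3 promoter peak (adjusted p = 0.000896). The first did not pass without Ebf1-KO 2 (adjusted p = 0.0523) or with quantile normalization (adjusted p = 0.0717), and the second not without Ebf1-KO 1 (0.0849), without Pax5-KO 2 (0.15) or with 5 added before the log (0.115). Neither passed without all libraries numbered 2 (adjusted p = 0.095 and 0.0973), and the promoter peak passed in every alternative run. Of the other Ras pathway genes, 5 were called on opposite sides of WT in the knockouts and differed between them. The Ebf1-KO and WT libraries of Dusp4, 1 of the 5, overlapped. For Ebf1-KO over Pax5-KO, Rasa4 had a log2 fold change of 2.26 (limma adjusted p = 2.25e-06), Prkce of -2.46 (adjusted p = 1.57e-08) and Dusp4 of -2.23 (adjusted p = 5.33e-05). Rasal1, a GTPase-activating protein, was at 2.02 (limma adjusted p = 2.09e-06) and Plcb2, a phospholipase C, at -1.35 (adjusted p = 2.24e-06), both named after their values were seen.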

How the results depend on the processing

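Counts of called peaks moved by over 1.5 times with the test or scaling: for Ebf1-KO against WT, 7817 became 5034 with DESeq2, and for Pax5-KO against WT, 7708 became 5035 with TMM scaling, 4363 with edgeR and 2990 with DESeq2. The counts with edgeR and DESeq2 cover fewer peaks, since shared peaks had no such test. Without the libraries numbered 2, an alternative chosen after seeing the data that leaves 6 libraries, called genes fell from 5976 to 3593 for Pax5-KO against WT and from 3962 to 2634 for Ebf1-KO against Pax5-KO. Called RasGRP peaks in the second contrast then fell from 3 to 1. The contrast between the knockouts at the intronic Rasgrp3 peak, not called in any setting, ranged from -0.26 (without Ebf1-KO 3) to 0.42 (without Ebf1-KO 1), with -0.03 without Pax5-KO 2, -0.006 without Pax5-KO 3 and -0.030 without all libraries numbered 2. The log2 fold change of Rasgrp1 for Ebf1-KO over WT ranged with the pseudocount from -9.45 (0.25 added) to -7.45 (5 added), and edgeR gave -9.75 and DESeq2 -9.79. For Ebf1-KO over Pax5-KO it was -5.97, -4.06, -6.28 and -6.31 in that order. With 5 added, Rasgrp3 was at -3.41 for Ebf1-KO over WT and at -7.74 for Ebf1-KO over Pax5-KO. With a replicate block 8783 genes (RNA, Ebf1-KO against WT), 8073 (Pax5-KO against WT) and 5622 (Ebf1-KO against Pax5-KO) were called, and none of the 167 pathway calls was lost. In ATAC the numbers did not pair the libraries (r from -0.05 to 0.11), and the block gave 7818, 7696 and 3136 peaks. Under TMM scaling 12 of the 167 were lost, 5 for Ebf1-KO against WT and 7 for Pax5-KO against WT, among them Sos1 (Ebf1-KO, limma adjusted p = 0.473) and Rap1b (0.456 and 0.164). The other alternatives were followed for the genes that met the naming rule, in the comparison where they met it. There a call was lost 24 times, all of Rras, Hras, Sos2, Lamtor3, Pebp1, Rapgef1 or Rapgef3. The cause was not tested.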
